A study of Mus musculus with 52 samples.

Results

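Dnmt3a, Dnmt3l, Trim28, Jarid2, Phc1 and Rif1 are 6 genes whose products write or maintain silent chromatin, and their transcripts were followed across 7 mouse embryonic stem (ES) cell lines. The members were taken by gene symbol from the platform annotation, which gave 6 of 9030 named genes and 12 of 20794 probes. These genes were chosen with earlier results of these data known. Shares of members set beside all features below therefore describe them and do not test them as a set. The lines were ZFCUMNT, HM-1 NT, PDCUMNT, B6NT, B6PGA, #4 (B6) and HM-1, an established mouse ES line, and per the series description they differ in the cells that gave the donor nuclei. Of these lines, a pair came from cumulus cells by different cloning methods, but which lines these are is not said, and the abbreviations in the line names are not explained. The labels used here name the lines only, with no further detail of strain, allele or treatment. They do not say which of the 7 lines had a nuclear donor. RNA of each pair of lines was hybridised together on 4 two-colour cDNA arrays, in 13 direct comparisons and 52 arrays, with the dyes swapped on 2 of every 4. The labels' protocol text speaks of thawed organs and a pooled control, while each channel of each array is labelled with an ES line.

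Silent chromatin is built by several systems that meet in ES cells. DNA methyltransferases add methyl groups to cytosines in CG pairs, and the corepressor TRIM28 is brought to retroelements and imprinted regions by KRAB zinc finger proteins, where it recruits a histone H3 lysine 9 methyltransferase. Polycomb complexes PRC1 and PRC2 hold developmental genes silent through histone H2A ubiquitination and histone H3 lysine 27 methylation.

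Each value below is a log2 ratio of the second-named over the first-named line, turned by the dye labels and read as Cy5 over Cy3. The numerator dye and the base of the logarithm are not stated with the deposited values. If the ratio is Cy3 over Cy5, every sign and every order of lines given here turns at once. Whether some arrays were already turned before deposit is not stated either. If they were, sizes, calls and orders of lines would change too, not the signs alone. The labels do not say whether the arrays of a comparison came from separate cultures or RNA extracts, so p-values measure the spread between arrays, which may be technical. A call is an adjusted p under 0.05 in limma, with Benjamini-Hochberg adjustment over all features tested. Ratios carry no absolute level, so the ES identity of the lines could not be checked from them, and in such bulk samples fewer cells of a type and less RNA per cell cannot be told apart.

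Between 17620 and 20200 probes were measured per array, and array medians lay between -0.209 and 0.469. Each member was measured on all 52 arrays except Dnmt3l, which was measured on 51. Over all features, 43 of 52 arrays correlated positively with the prediction from the other comparisons, with a median correlation of 0.0449. The other 9 arrays correlated negatively, from -0.0535 to -0.0020. They were arrays 3 and 4 of #4 (B6) minus HM-1, of B6NT minus #4 (B6) and of B6PGA minus #4 (B6). Array 2 of ZFCUMNT minus B6NT and arrays 1 and 3 of ZFCUMNT minus HM-1 NT were the others. All these correlations were near 0, as was the 0.0032 of array 2 of ZFCUMNT minus PDCUMNT. Whether any labels were swapped was not tested. Below, these 9 arrays of 5 comparisons are called arrays against their labels, which refers to this sign alone. The test over the lines and the called line pairs are given with and without these 5 comparisons. The counts of signs and the contrasts of NT lines include them and have no value without them.

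In the test over the 7 lines, 3 of the 6 genes were called: Dnmt3l, Rif1 and Trim28. Of all 15706 features tested, 3.23% were called. Marker lists described below also had high shares in this test. It called 8 of 18 ES cell markers, 10 of 26 fibroblast and feeder markers and 2 of 8 trophectoderm markers. None of 9 endoderm markers was called. A high share was thus not particular to the 6 genes. Dnmt3l spanned 1.48 log2 units between its extreme lines and Rif1 spanned 1.07, while the median span over all features was 0.74. Trim28 spanned 0.65, Dnmt3a 0.70, Jarid2 0.61 and Phc1 0.61. In the 13 direct comparisons, which rest on 4 arrays each, 1 of 78 member values was called, against 0.532% of all 205999 feature values, and from 0.101% in ZFCUMNT minus HM-1 to 1.22% in B6PGA minus #4 (B6). That value was Rif1 in B6PGA minus #4 (B6).

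Promoters of Dnmt3l and Trim28 are shown because both genes were called in the test over the lines, and both were called for the pair ZFCUMNT and HM-1 in the fit over all arrays, though not in the direct comparison. The sequences run from 250 bases before to 50 bases after the first RefSeq start of each gene in GRCm38.p6, 5′ to 3′ on the plus strand, with CG pairs, the letters that DNA methyltransferases act on, in capitals. The Dnmt3l stretch is chr10:78042037-78042336 and the Trim28 stretch is chr7:13023902-13024201.
Dnmt3l: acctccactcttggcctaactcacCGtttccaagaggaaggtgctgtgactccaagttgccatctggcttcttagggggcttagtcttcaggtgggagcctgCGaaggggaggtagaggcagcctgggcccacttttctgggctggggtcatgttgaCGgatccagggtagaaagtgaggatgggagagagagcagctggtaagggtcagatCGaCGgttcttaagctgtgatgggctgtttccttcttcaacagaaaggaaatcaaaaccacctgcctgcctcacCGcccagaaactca
Trim28: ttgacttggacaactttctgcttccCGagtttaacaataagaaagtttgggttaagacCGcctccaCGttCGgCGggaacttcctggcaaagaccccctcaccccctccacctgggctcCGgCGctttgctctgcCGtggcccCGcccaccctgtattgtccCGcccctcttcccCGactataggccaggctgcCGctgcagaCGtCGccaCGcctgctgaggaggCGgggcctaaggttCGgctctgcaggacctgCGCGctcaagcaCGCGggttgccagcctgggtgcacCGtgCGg
The Dnmt3l stretch holds 6 CG pairs and the Trim28 stretch holds 23. Among 32851 promoters of 300 bases the median was 7, and 94.6% held at least 1 CG, which reads the same on both strands. Of these promoters, 43.6% had fewer CG pairs than Dnmt3l and 78.5% had fewer than Trim28. Of the 6 genes, 5 had a promoter entry. The other 2 Dnmt3l starts had 4 and 3 CG pairs, the 3 Dnmt3a starts had 46, 47 and 18, the 2 Jarid2 starts 24 and 23, and Phc1 had 9. The arrays measured RNA and hold no methylation values.

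Dnmt3l (Entrez gene 54427, chromosome 10) encodes a relative of the DNA methyltransferases that has no catalytic activity of its own and stimulates DNMT3A and DNMT3B. It was measured by a single probe. PDCUMNT and ZFCUMNT stood highest, at 0.78 ± 0.27 and 0.68 ± 0.17 log2 units from the mean of the 7 lines (SE of the fit over 51 arrays). HM-1 and HM-1 NT stood lowest, at -0.57 ± 0.14 and -0.70 ± 0.23. B6NT at 0.02, #4 (B6) at -0.02 and B6PGA at -0.18 lay between these pairs. The line test gave an adjusted p of 0.0022, and no single array left out changed that call (adjusted p at most 0.0081). Without the 5 comparisons that hold arrays against their labels, the adjusted p over the lines was 0.010.

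The Dnmt3l ratios of PDCUMNT minus HM-1 were 2.04, 2.35, 1.17 and 0.65 on the 4 arrays. All were positive, with the dye-swapped pair lower than the other pair. The direct fit gave 1.55 ± 0.42 (SE, n = 4 arrays), a 2.93-fold difference, with an adjusted p of 0.056. In ZFCUMNT minus HM-1 the arrays read 1.69, 1.95, -0.48 and 1.45, so 3 of 4 were positive. That direct value was 1.15 ± 0.42 (adjusted p = 0.612). Pooled over all arrays in the line fit, ZFCUMNT minus HM-1 was 1.25 ± 0.24 (adjusted p = 1.1e-03) and PDCUMNT minus HM-1 was 1.35 ± 0.31 (adjusted p = 0.013). Without the 5 comparisons these pairs were 1.32 (adjusted p = 0.022) and 1.39 (adjusted p = 0.010). Of all features, 1.24% were called in the ZFCUMNT minus HM-1 pair and 1.78% in the PDCUMNT minus HM-1 pair. Without array 2 of PDCUMNT minus HM-1, the adjusted p of that pair was 0.059.

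ZFCUMNT minus HM-1 NT gave the widest Dnmt3l readings, 2.15, -1.04 and 3.48 on the 3 arrays that measured it. The fitted value was 1.59 ± 0.49 (adjusted p = 0.189). It was 2.81 without array 3, the only negative reading and one of the arrays against their labels. That value rests on arrays 2 and 4 alone, fewer than the 3 arrays required for a test. ZFCUMNT minus PDCUMNT, the direct comparison of both highest lines, read -0.48, 0.22, 0.60 and 0.05, with a fitted difference of 0.10 ± 0.42 (adjusted p = 0.980). These arrays lay on both sides of 0. The remaining 9 direct Dnmt3l values ran from -0.76 in HM-1 NT minus B6NT to 0.69 in B6PGA minus HM-1, and none was called.

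Dnmt3a (Entrez gene 13435, chromosome 12) encodes a de novo DNA methyltransferase, the partner that DNMT3L stimulates. ZFCUMNT stood highest at 0.36 ± 0.13, followed by B6NT at 0.23 ± 0.14, and HM-1 stood lowest at -0.34 ± 0.11. PDCUMNT, #4 (B6), HM-1 NT and B6PGA lay between -0.03 and -0.12. The test over the lines did not call it (adjusted p = 0.186), and called it without those 5 comparisons (adjusted p = 0.027). In the line fit, ZFCUMNT minus HM-1 was called at 0.70 ± 0.18 (adjusted p = 0.031), and at 0.97 without the 5 comparisons (adjusted p = 0.015). The direct arrays of that comparison read 1.35, 1.03, 0.66 and 0.75, all positive, with a fitted value of 0.95 ± 0.32 (adjusted p = 0.471). The pair call was lost without any 1 of 6 arrays, including each of the 4 of ZFCUMNT minus HM-1 (highest adjusted p = 0.072), and it held under 9 of 12 alternative settings.

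The 5 Dnmt3a probes did not move together. Probe 5043 was called in the line test on its own (adjusted p = 4.7e-04), as was probe 13968 (adjusted p = 0.035). Probes 872 and 18448 were not (adjusted p = 0.669 and 0.861), and probe 16592 was measured on only 36 arrays and not tested. In ZFCUMNT minus HM-1, probe 5043 read 1.30, 1.42, 1.48 and 1.48 and probe 13968 read 2.47, 2.05, 1.32 and 1.09. Both stood above 1 on all 4 arrays, whereas probe 872 ran from -0.21 to 0.62. In B6PGA minus #4 (B6), probe 5043 read -0.62, -0.70, -4.14 and -1.52, a fitted -1.75 ± 0.33 (adjusted p = 1.7e-03). Probe 18448 read 0.11, 0.99, -1.24 and 5.21 there, a fitted 1.27 ± 0.73 (adjusted p = 0.599). The gene average of 0.15 ± 0.32 therefore joined probes of opposite sign. The positions of the probes in the transcript were not used here.

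Trim28 (Entrez gene 21849, chromosome 7) was also measured by a single probe. HM-1 NT at 0.28 ± 0.12, PDCUMNT at 0.22 ± 0.15 and ZFCUMNT at 0.21 ± 0.09 stood highest, and HM-1 at -0.37 ± 0.08 and B6PGA at -0.33 ± 0.15 lowest. B6NT lay at 0.09 and #4 (B6) at -0.10. The adjusted p over the lines was 0.016, with at most 0.039 when any array was left out and 0.0016 without those 5 comparisons.

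In HM-1 NT minus HM-1 the Trim28 arrays read 0.99, 1.06, 0.81 and 0.41, and in ZFCUMNT minus HM-1 they read 0.82, 0.998, 0.78 and 0.53. All 8 arrays were positive, in both dye orientations. The direct values were 0.82 ± 0.23 (adjusted p = 0.155) and 0.78 ± 0.23 (adjusted p = 0.279), neither of which was called. In the line fit, HM-1 NT minus HM-1 was 0.65 ± 0.15 (adjusted p = 0.021), a 1.57-fold difference, and ZFCUMNT minus HM-1 was 0.58 ± 0.13 (adjusted p = 7.3e-03). Without the 5 comparisons these pairs were 0.75 (adjusted p = 0.00842) and 0.66 (adjusted p = 0.018). Among all features, 0.783% were called in the HM-1 NT minus HM-1 pair. That Trim28 call was lost without array 1, 2 or 3 of the direct comparison (adjusted p = 0.063 to 0.068). PDCUMNT minus HM-1 read 1.11, 0.77, 0.04 and 0.11, with the first dye orientation above the second (fitted 0.51 ± 0.23, adjusted p = 0.381). B6PGA minus HM-1 read -0.004, -0.23, 0.14 and -0.06, on both sides of 0. The other 9 Trim28 values lay between -0.17 and 0.43.

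Jarid2 (Entrez gene 16468, chromosome 13) encodes a DNA-binding partner of PRC2. B6NT at 0.27 ± 0.10 and PDCUMNT at 0.25 ± 0.14 stood highest and #4 (B6) lowest at -0.34 ± 0.10. ZFCUMNT, HM-1 NT, HM-1 and B6PGA ran from 0.05 to -0.18. The adjusted p over the lines was 0.084, or 0.337 without the 5 comparisons. B6NT minus #4 (B6) read 0.79, 1.19, 1.24 and -0.37, with 3 of 4 arrays positive, and the direct value of 0.71 ± 0.21 was not called (adjusted p = 0.250, 0.245% of features called). In the line fit the same pair was called at 0.61 ± 0.14 (adjusted p = 0.022), where 0.427% of all features were called. Without the 5 comparisons that hold arrays against their labels, this pair was 0.47 (adjusted p = 0.651). Its probes differed: probe 18624 gave 1.43 ± 0.32 (adjusted p = 0.021) and probe 9973 gave -0.01 ± 0.26.

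Phc1 (Entrez gene 13619, chromosome 6) encodes a Polyhomeotic subunit of canonical PRC1. ZFCUMNT stood highest at 0.37 ± 0.10 and HM-1 NT next at 0.16 ± 0.13. #4 (B6) and B6PGA stood lowest at -0.22 ± 0.11 and -0.23 ± 0.16, with B6NT, HM-1 and PDCUMNT between -0.02 and -0.05. ZFCUMNT minus #4 (B6) read 0.55, 0.73, 0.75 and 1.27, all positive, with a direct value of 0.82 ± 0.25 (adjusted p = 0.099). No line pair was called for Phc1, and the adjusted p over the lines was 0.184, or 0.048 without the 5 comparisons that hold arrays against their labels. Its other 12 direct values ran from -0.23 to 0.40.

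Rif1 (Entrez gene 51869, chromosome 2) encodes a regulator of replication timing that also acts at telomeres and in DNA break repair. B6PGA stood highest at 0.52 ± 0.18 and #4 (B6) lowest at -0.55 ± 0.13. HM-1 at 0.19 ± 0.10, HM-1 NT at 0.12 ± 0.15 and B6NT at 0.10 ± 0.13 followed B6PGA, and ZFCUMNT at -0.18 ± 0.11 and PDCUMNT at -0.20 ± 0.18 preceded #4 (B6). The line test gave an adjusted p of 0.0077.

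B6PGA minus #4 (B6) read 1.08, 0.91, 0.95 and 1.62 for Rif1. Every array was above 0.9, in both orientations. The direct value was 1.14 ± 0.29, or 2.21-fold (adjusted p = 0.033), in a comparison where 1.22% of 15535 features were called and 0.637% were called positive. The call was lost without array 3 (adjusted p = 0.113) or array 4 (0.88, adjusted p = 0.277), and it held under 4 of 10 alternative settings, with adjusted p up to 0.610 when the arrays' constant top values were kept as measured. B6NT minus #4 (B6) read 0.57, 1.34, 0.76 and 0.66, also all positive, at 0.83 ± 0.29 (adjusted p = 0.476). #4 (B6) minus HM-1 read -0.22, -0.49, -0.59 and -0.36, all negative, at -0.42 ± 0.29 (adjusted p = 1). ZFCUMNT minus HM-1 was likewise negative on 4 of 4 arrays, from -0.66 to -0.38, and its direct value was -0.48 ± 0.29 (adjusted p = 1).

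In the line fit, Rif1 was called in B6PGA minus #4 (B6), at 1.07 ± 0.22 (adjusted p = 4.2e-03), and in #4 (B6) minus HM-1, at -0.74 ± 0.17 (adjusted p = 0.014). Of all features 0.592% and 0.847% were called in these pairs. Of the 4 comparisons that include #4 (B6), 3 hold dye-swapped arrays against their labels. Without the 5 comparisons with such arrays, B6PGA minus #4 (B6) was 1.16 (adjusted p = 0.384), #4 (B6) minus HM-1 was -0.90 (adjusted p = 0.272), and the line test was not called (adjusted p = 0.490). With top values kept, the adjusted p was 0.474 for B6PGA minus #4 (B6), 0.763 for #4 (B6) minus HM-1 and 0.447 over the lines. Of the Rif1 probes, only probe 7852 had a top value, on 1 array. Rif1 in HM-1 NT minus B6NT, at 0.25 with the settings used, went as low as -1.75 under the alternatives. All comparisons share a single estimate of the spread. Probe 1664 carried the test, with an adjusted p of 3.5e-07 over the lines and 1.23 ± 0.20 in B6PGA minus #4 (B6) (adjusted p = 2.3e-04). Probe 7852, measured on 47 arrays, gave 1.18 ± 0.53 there on 3 arrays (adjusted p = 0.398), and its adjusted p over the lines was 0.488. Both probes put B6PGA highest, at 0.55 and 0.53. At the other end, probe 1664 put #4 (B6) lowest at -0.58, with PDCUMNT close by at -0.54. Probe 7852 put #4 (B6) at -0.53 and PDCUMNT at -0.01.

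**Figure D1:**
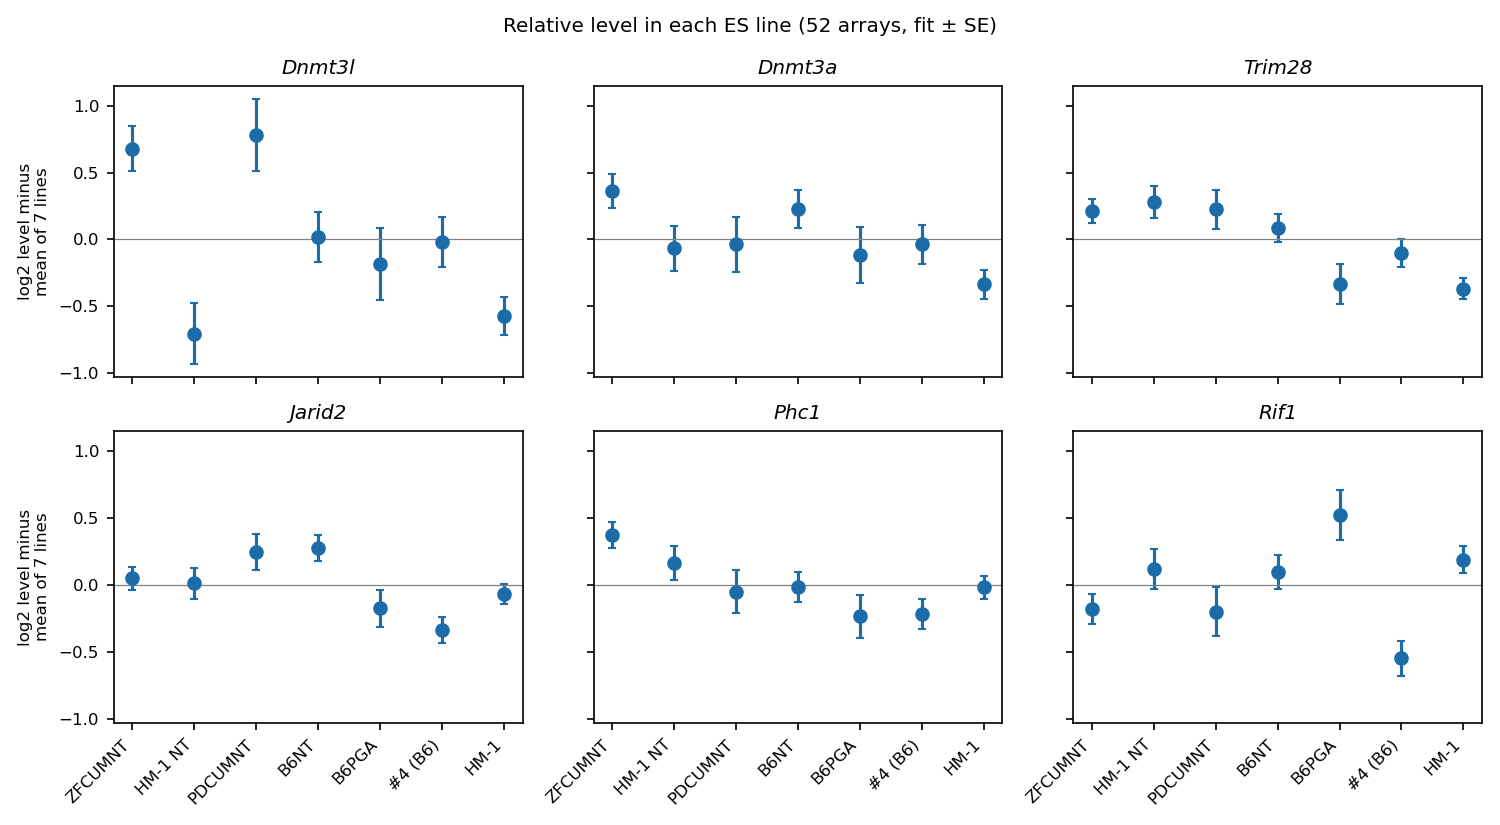
Fitted level of each gene in the 7 lines (x axis), in log2 units from the mean of the lines (y axis), with bars for the SE over 52 arrays (51 for Dnmt3l). Dnmt3l runs from 0.78 in PDCUMNT to -0.70 in HM-1 NT, and Rif1 from 0.52 in B6PGA to -0.55 in #4 (B6).

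Over the 6 genes and 21 line pairs, 8 of 126 pair values were called, against 0.473% of all feature values in these pairs. Without the 5 comparisons that hold arrays against their labels, 7 were called, and the share over all features was not counted there. Lines next to each other in a gene's order were not called in any of the 36 neighbouring pairs, which does not show that they are equal. The neighbours with an unadjusted p under 0.05 were ZFCUMNT and B6NT for Dnmt3l alone, with a difference of 0.66 ± 0.26 (limma, unadjusted p = 0.014, adjusted p = 0.521).

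**Figure D2:**
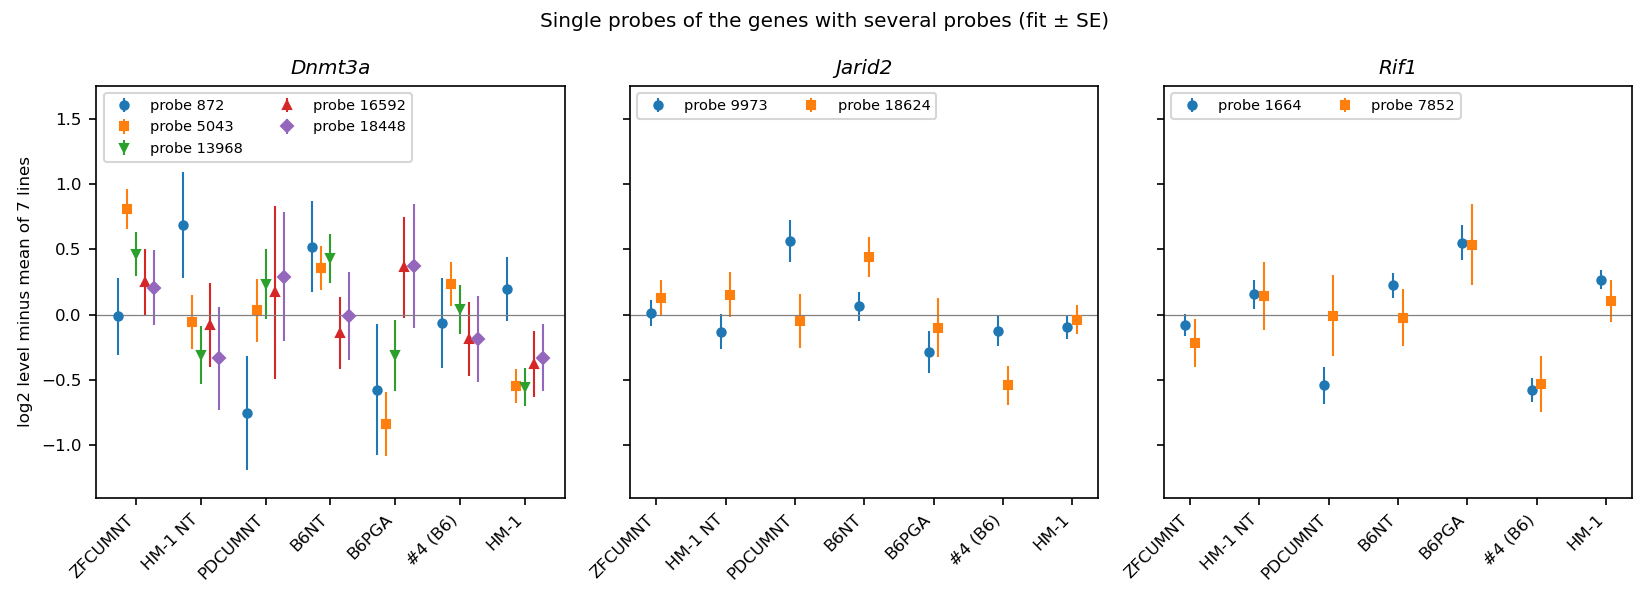
Fitted level of each probe of Dnmt3a, Jarid2 and Rif1 in the 7 lines (x axis), in log2 units from the mean of the lines (y axis), with bars for the SE. Both Rif1 probes put B6PGA near 0.5 and #4 (B6) near -0.5, while Dnmt3a probes 5043 and 18448 have opposite signs in B6PGA.

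The comparisons of HM-1 NT with HM-1 and of B6NT with #4 (B6) set a line labelled NT against the line of the same name, and they share no array. In the mean of both, none of the 6 genes was called, with 0.151% of 15227 features called. Trim28 had the lowest adjusted p, at 0.52 ± 0.16 (SE, n = 8 arrays, adjusted p = 0.398). Jarid2 was 0.37 ± 0.15, Rif1 0.38 ± 0.21, Phc1 0.18 ± 0.18, Dnmt3a 0.14 ± 0.23 and Dnmt3l 0.03 ± 0.30. The difference between both comparisons was not called for any member either (0.197% of features called). Rif1 differed by -0.90 ± 0.41 (adjusted p = 0.897), since it read -0.07 in HM-1 NT minus HM-1 and 0.83 in B6NT minus #4 (B6).

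Because the lines form closed loops of comparisons, each direct value can be set beside the value that other arrays of the same lines predict. Direct and indirect values had the same sign in 56 of 78 cases, with 11 of 13 each for Dnmt3a and Rif1, 10 each for Trim28 and Phc1, and 7 each for Dnmt3l and Jarid2. Over all features the share was 51.2% to 57.1% per comparison. For Rif1 in B6PGA minus #4 (B6) the indirect value was 0.97 beside the direct 1.14, and for Dnmt3l in ZFCUMNT minus HM-1 it was 1.30 beside 1.15. For Dnmt3l in #4 (B6) minus HM-1 it was 0.88 beside a direct -0.02. The limma test of whether direct values add up to 0 around the loops called none of the 6 genes and none of 11291 features, of which 5.52% had an unadjusted p under 0.05.

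**Figure D3:**
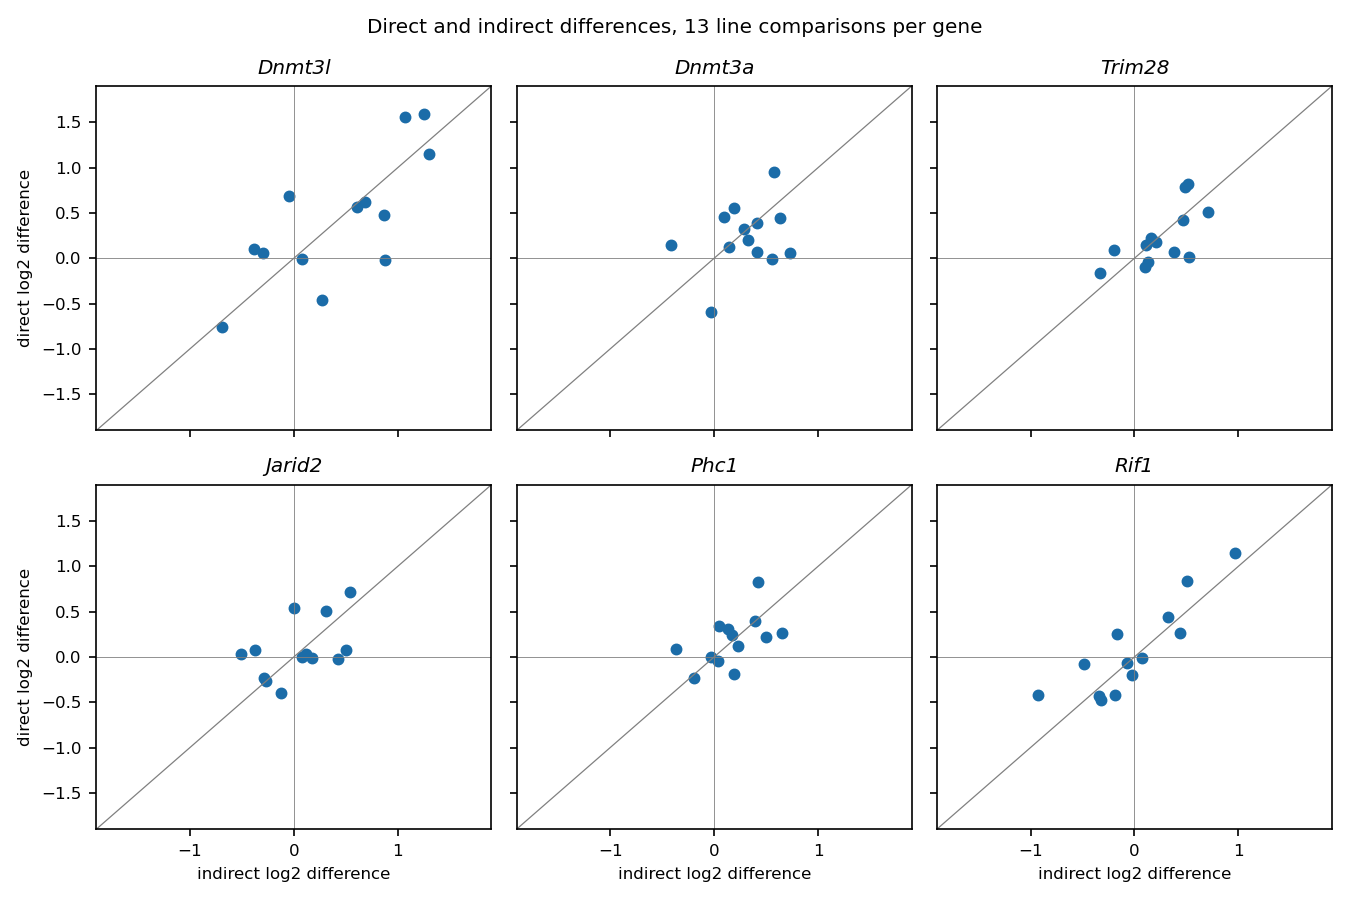
Direct log2 difference (y axis) against the difference predicted from the other comparisons (x axis), 1 point per comparison and 13 per gene; the diagonal marks equal values. Rif1 and Dnmt3a have 11 of 13 points with the same sign on both axes, and Dnmt3l and Jarid2 have 7.

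The means of both dye orientations had the same sign in 43 of 78 member values, against 42.7% of all feature values. Over all features the orientations thus differed in sign more often than they shared it. Whether dye effects or turning before deposit had a part in this was not tested. All arrays of a comparison had 1 sign in 23 of 78, against 14.3%. By gene, this was 5 of 13 comparisons for Rif1 and for Phc1, 4 for Dnmt3l and for Trim28, 3 for Dnmt3a and 2 for Jarid2.

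As a set, the 6 genes had a median of 0.59 in ZFCUMNT minus HM-1, where the median of all features was -0.06, and 0.48 in PDCUMNT minus HM-1, where it was -0.08. In each of these comparisons 4 of 6 were positive, and Rif1 was negative. In ZFCUMNT minus #4 (B6) all 6 were positive, with a median of 0.46 against 0.08. In B6PGA minus #4 (B6) the median was -0.01 and 2 of 6 were positive. Across the 13 comparisons, which share lines, the correlation between members ran from -0.55 for Dnmt3l with Rif1 to 0.49 for Dnmt3a with Dnmt3l.

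Among 6446 genes tested in all 13 comparisons, the genes whose fitted values ran most like each member's were found by Pearson correlation, given as a description over 13 values that share lines. For Dnmt3l they were Noxa1 (0.86), Golga3 (0.82) and Ldhal6b (0.82), and for Dnmt3a they were Mt3 (0.91), Ccdc178 (0.82) and Tbc1d10a (0.81). For Trim28 they were Rbm8a (0.93), Hmgcs1 (0.83) and Hnrnpa1 (0.82). Jarid2 ran most like Itgav (0.87), Mtfr1 (0.81) and Hspb1 (0.78). Phc1 ran most like Itih3 (0.93), Uhrf1 (0.89) and Prss21 (0.88). Rif1 ran most like Klf4 (0.89), a pluripotency transcription factor, Sun2 (0.89) and Lamc3 (0.86).

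Lists of genes of the same systems, which include the 6 genes themselves, were counted in the same tests. Of 13 tested DNA methylation writers, readers and erasers, 4 were called over the lines, namely Dppa3, Uhrf1, Dnmt3l and Dnmt1. Of 18 genes of TRIM28 and H3K9 silencing none other than Trim28 itself was called, of 11 PRC2 genes Mtf2, and of 18 PRC1 genes Kdm2b. Of 23 genes of RIF1 function, telomeres and replication timing, Terf1 and Rif1 were called, and of 9 germline genes known to be silenced by promoter methylation, Rhox5. These counts stand beside the 3.23% of all features.

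In the direct comparisons, Dppa3, whose product binds UHRF1 and limits maintenance methylation, was 2.18 ± 0.35 in HM-1 NT minus HM-1 (adjusted p = 1.2e-03, 0.254% of features called). Uhrf1, which guides DNMT1 to replicated DNA, was 2.44 ± 0.45 in ZFCUMNT minus #4 (B6) on 3 arrays (adjusted p = 2.5e-03, 0.935% called). The telomere repeat binding factor Terf1 was -2.01 ± 0.31 in ZFCUMNT minus HM-1 NT (adjusted p = 1.2e-03, 0.292% called), and its relative Terf2 was -1.07 ± 0.23 in PDCUMNT minus HM-1 (adjusted p = 0.013, 1.14% called). Rhox5, a homeobox gene, was 2.10 ± 0.37 in B6NT minus HM-1 (adjusted p = 1.8e-03, 0.17% called). No gene of the TRIM28, PRC2 or PRC1 lists was called in a direct comparison, over 232, 141 and 231 values. Over all feature values 0.532% were called, so few calls were to be expected. The absence of calls does not show that these lists were unchanged.

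Markers of other cells and of ES cells moved with some of these pairs. Of 30 fibroblast and feeder markers, 27 were on the array. In B6PGA minus #4 (B6) their median was 0.08, with 13 of 24 positive and Lox called, and the ES cell markers had a median of 0.28, with Klf4 and Dppa5a called. Of 8 trophectoderm markers 5 were positive there, with Cdx2 called at 1.13, and of 10 endoderm markers 6 were positive and none called. In the other pairs below, no trophectoderm or endoderm marker was called. In B6NT minus #4 (B6), the pair with the Jarid2 call, the fibroblast median was -0.22, with 6 of 25 positive and 2 called negative. There 15 of 19 ES markers were positive, with Dppa5a called at 2.12 and Klf4 at 1.01. In #4 (B6) minus HM-1, a pair with a Rif1 call, 19 of 26 fibroblast markers were positive with Vim called at 1.04. Of 18 ES markers there, 6 were positive, and Dppa5a at -1.41, Klf4 at -0.82 and Zfp42 at -2.85 were called. In HM-1 NT minus HM-1, 19 of 27 fibroblast markers were positive with a median of 0.30, 12 of 19 ES markers were positive, and none of either was called. In ZFCUMNT minus HM-1, 16 of 27 fibroblast markers and 5 of 18 ES markers were positive, and Zfp42 was called at -2.44. In PDCUMNT minus HM-1, 13 of 27 fibroblast markers and 10 of 19 ES markers were positive, with Zfp42 called at -2.53 and Pou5f1 at 0.87. Of all features, 1.22% were called in B6PGA minus #4 (B6), 0.245% in B6NT minus #4 (B6) and 0.219% in #4 (B6) minus HM-1. The shares were 0.254% in HM-1 NT minus HM-1, 0.101% in ZFCUMNT minus HM-1 and 1.14% in PDCUMNT minus HM-1. The part of these markers in the values of the 6 genes was not tested.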

How the data were processed

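RNA of 7 mouse ES lines was compared on 52 two-colour arrays. The authors deposited ratios on a log scale, read here as log2 from their range; background correction, normalization, log base and numerator dye are not given in the sources used here. Ratios were turned by the dye labels, and 20 to 174 probes per array at a constant top value were treated as not measured. Of 20794 probes, 12771 had 1 symbol, 8023 none and 0 several; probes of 1 symbol were averaged into 17053 features. Tests used limma 3.58.1 in R 4.3.3, with a dye term, empirical Bayes and Benjamini-Hochberg adjustment, and were tested on simulated data with independent normal noise. In the first run 1 simulated setting had more false calls than the limit set for each. That limit was then replaced by a limit pooled over the settings, which was met. A feature was tested with at least 3 of 4 arrays in both orientations, or at least 39 of 52 for the lines. The number of arrays limits the precision: the median SE of a direct value was 0.43 to 0.44 log2 units. Named genes were the 6 members, list genes called in a direct comparison (at most 4 per list), and the 3 genes most correlated with each member. The members and lists, the handling of top values and the 5 comparisons left out in a check were chosen with earlier results of these data known. Alternatives changed top values, centring, scale, weights, dye term, probe averaging, variance model, filter, blocks, adjustment and arrays. Probe coordinates were not used, since the files name no build.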

Additional observations from a re-analysis of the deposited data

Results flagged for a closer look

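Trim28 in #4 (B6) minus HM-1 had 1 array far from the others. Array 2 read 0.574, while the other 3 arrays read -0.04, -0.10 and -0.14. Its distance to the nearest of them passed Dixon's critical value for 4 values. Of 77 groups of 4 arrays tested over the 6 genes, this was the only 1 past that value, and chance gives about 1 in 20. The fitted value was 0.07 ± 0.23 with all 4 arrays and was not called.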

How the results depend on the processing

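The call in the direct comparisons, 1 with the settings used, numbered 0 with top values kept, without the dye term, with each comparison fitted alone or with all comparisons adjusted together, 2 with arrays scaled to equal spread, 5 with array weights and 3 with probes tested singly. With 1 array left out the number ran from 0 to 3. These numbers do not follow the Rif1 value in B6PGA minus #4 (B6) alone, which was called under 4 of 10 alternatives. Jarid2 and Rif1 in B6NT minus #4 (B6), Trim28 in HM-1 NT minus HM-1, and Dnmt3a, Dnmt3l and Trim28 in ZFCUMNT minus HM-1 were each called under 1 or 2. The 3 calls over the lines became 5 with array weights and 3 to 4 with 1 array left out. The 8 line-pair calls became 14 with array weights, 5 without the dye term and 15 with probes tested singly, and 7 to 12 with 1 array left out. The mean of the NT comparisons had 0 calls, and 1 with array weights. The share of all features called was not counted under these alternatives. Whether the member counts only followed calls in general is therefore not known. Dnmt3l and Trim28 stayed called over the lines under every alternative run and with any of 52 arrays left out, except that Dnmt3l could not be tested among features measured on all 52 arrays. Rif1 was not called over the lines with top values kept (adjusted p = 0.447) or without the 5 comparisons (adjusted p = 0.490). Without those 5, Dnmt3a and Phc1 were called (adjusted p = 0.027 and 0.048). The cause was not tested. The replicate block within dye orientation changed no count: 1 direct call, 3 over the lines and 8 in line pairs. The array numbers did not pair the arrays, since only 16 of 52 correlated best with their own number. No called value changed sign, and of 78 direct values at most 6 uncalled ones did, with array medians subtracted. The members' SEs of 0.21 to 0.49 limit what single comparisons can show.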
